A study of Homo sapiens with 16 samples.

Results

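The mRNAs described here are those of 5 human cell-division genes, PCLAF, ORC6, UHRF1, UBE2C and BUB3, followed through RNA immunoprecipitation (IP) with HuR. They were taken by gene symbol in the platform annotation, which gave 13 of the 47231 probes on the arrays: 3 for PCLAF, 2 for ORC6, 2 for UHRF1, 2 for UBE2C and 4 for BUB3. The genes were chosen by their intensities with control siRNA, which were higher after HuR IP than after IgG IP. That comparison is therefore given for them as a description. For the IPs with MIR100HG siRNA p-values are given, but the genes were chosen with those results known, so these are descriptions too. The cells were U2OS, a human osteosarcoma line, synchronized in the cell cycle at a phase that the labels do not give per sample. They received an siRNA named miR-100HG in the titles, aimed at the long noncoding RNA MIR100HG, or a control siRNA for 48 hours, and lysates were incubated with an antibody against HuR or with IgG as background. The 4 groups were HuR IP with MIR100HG siRNA, IgG IP with MIR100HG siRNA, HuR IP with control siRNA and IgG IP with control siRNA, each with 4 biological replicates on single-colour Illumina bead arrays. All samples came from this 1 cell line. In the protocol the target of that siRNA is written mIR-110HG. The question, going by the series title, was whether MIR100HG affects the binding of mRNAs by HuR.

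HuR, encoded by ELAVL1, is an RNA-binding protein that binds U-rich and AU-rich stretches of mRNAs and is known for stabilizing many of them, among them mRNAs of cell-cycle regulators. DNA replication starts from origins that the origin recognition complex marks in G1, and in S phase the sliding clamp PCNA holds polymerases and their partners on DNA. Mitosis is timed by the anaphase-promoting complex (APC/C), a ubiquitin ligase that the spindle checkpoint holds back until chromosomes are attached.

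In the order of these steps, ORC6 encodes the smallest subunit of the origin recognition complex and lies at chr16:46689659-46698394. PCLAF, at chr15:64364304-64387687, encodes a PCNA-associated factor (older name KIAA0101). UHRF1, at chr19:4903080-4962154, encodes a protein that reads hemimethylated DNA behind the replication fork and recruits the maintenance methyltransferase DNMT1. UBE2C, at chr20:45812644-45816952, encodes the ubiquitin-conjugating enzyme that works with the APC/C. BUB3, at chr10:123154402-123170467, encodes a WD-repeat subunit of the spindle checkpoint. Coordinates are those of RefSeq on GRCh38.p14.

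The genes of ORC6 and PCLAF, whose mRNAs passed the test described next, have the following promoter windows in RefSeq (GRCh38.p14), shown because cell-division genes are commonly driven through CCAAT boxes and E2F sites. Each window runs 5′ to 3′ on the gene's strand, from 250 bases before to 50 after a start. Capitals mark CCAAT, or ATTGG on the other strand, and E2F sites (TTTCCCGC, TTTGGCGC, TTTGCCGC, TTTCGCGC or their reverse complements); none of the marked motifs overlap. PCLAF lies on the minus strand (chr15:64381392-64381691, the window of its 2 that holds a motif), and ORC6 on the plus strand (chr16:46689409-46689708).
PCLAF: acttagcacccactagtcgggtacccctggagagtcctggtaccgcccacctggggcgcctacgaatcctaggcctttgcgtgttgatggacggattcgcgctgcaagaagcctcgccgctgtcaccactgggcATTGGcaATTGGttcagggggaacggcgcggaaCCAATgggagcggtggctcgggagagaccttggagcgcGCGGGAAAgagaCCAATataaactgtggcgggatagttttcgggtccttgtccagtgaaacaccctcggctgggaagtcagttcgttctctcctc
ORC6: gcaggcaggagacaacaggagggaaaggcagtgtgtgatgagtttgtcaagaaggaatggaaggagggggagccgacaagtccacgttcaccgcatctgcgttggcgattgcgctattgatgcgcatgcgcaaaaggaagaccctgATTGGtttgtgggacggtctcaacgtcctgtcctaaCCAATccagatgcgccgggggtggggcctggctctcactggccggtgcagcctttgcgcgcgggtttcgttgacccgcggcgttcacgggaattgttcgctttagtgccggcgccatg
The PCLAF window holds 4 CCAAT matches and 1 E2F match, and the ORC6 window 2 CCAAT matches and 0 E2F matches. Of 35116 windows of this length, 34.6% hold a CCAAT match and 3.31% an E2F match. Windows were matched for 3 of the 5 genes, the third being UHRF1 with 3 windows, of which 2 hold both kinds of match. The arrays measured recovered RNA and bear on no promoter.

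Most probes lay at background. Between 553 and 2592 probes per array had a detection p, which compares a probe with the negative controls of its array, under 0.01, where 472 would by chance. HuR replicate 2 under MIR100HG siRNA was an exception, with 2592 such probes and a highest intensity of 6370. The other 3 arrays of its group had 563 to 824 and highest intensities of 314 to 334. The ranges were 553 to 1015 and 296 to 339 in IgG IPs with MIR100HG siRNA, 752 to 1407 and 770 to 1420 in HuR IPs with control siRNA, and 829 to 1094 and 335 to 413 in IgG IPs with control siRNA. The array median was 48 to 50 in HuR IPs and 42 to 45 in IgG IPs with MIR100HG siRNA, and 46 to 47 and 45 to 47 with control siRNA. The probes of MIR100HG and ELAVL1 reached a detection p under 0.05 on 0 of 16 arrays, so depletion of MIR100HG could not be checked here. Of 10 mesenchymal and osteoblast markers 1 had a probe with a detection p under 0.01 on any array, as did 1 of 5 epithelial markers and 0 of 4 blood and endothelial markers with a probe. No marker passed the filter of the test, so the cell type could not be checked from these IPs. Precision is limited by the number of arrays and the dim signal. In such pooled lysates, fewer cells and less RNA per cell cannot be told apart.

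One probe of each gene passed the filter of the test, which asked for 4 or more of the 16 arrays with a detection p under 0.01, among 1387 genes and unnamed probes in all. The BUB3, UHRF1 and UBE2C probes reached that detection p on HuR arrays alone and so passed through the IPs where they were high. The other 8 of the 13 probes had intensities of 36 to 60 on all arrays. Of these, 6 had a detection p under 0.05 for 2 of 96 values. The remaining 2, both for BUB3, had one for 19 of 32 values, ILMN_2245180 on 12 and ILMN_1778764 on 7 of 16 arrays, among them IgG arrays.

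The platform pairs both of these BUB3 probes, as well as PCLAF ILMN_1732150 and ORC6 ILMN_1731070, with the same RefSeq transcript as the probe of that gene that was tested. On HuR replicate 2 under MIR100HG siRNA, PCLAF ILMN_1732150 had an intensity of 48 where the tested probe had 1774. ORC6 ILMN_1731070 had 45 on that array, where the tested probe had 1326. With MIR100HG siRNA ILMN_2245180 averaged 58 ± 2.45 in HuR IPs and 48.2 ± 2.06 in IgG IPs, and with control siRNA 56.5 ± 1.73 and 53.5 ± 2.38 (intensity, SD, n = 4 each). ILMN_1778764 averaged 54 ± 1.83 in HuR IPs and 48.2 ± 4.43 in IgG IPs with MIR100HG siRNA, and 52.5 ± 2.38 and 53.2 ± 2.22 with control siRNA. The array medians also differed with MIR100HG siRNA, at 48 to 50 in HuR IPs and 42 to 45 in IgG IPs. After the array median was subtracted, HuR and IgG arrays with MIR100HG siRNA overlapped for both probes. ILMN_2245180 was then at 5 to 12 against 2 to 7, and ILMN_1778764 at 3 to 8 against 0 to 9. With control siRNA the HuR and IgG arrays overlapped for both probes, unlike the tested BUB3 probe ILMN_1693145. Every result below rests on 1 probe per gene.

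**Figure D1:**
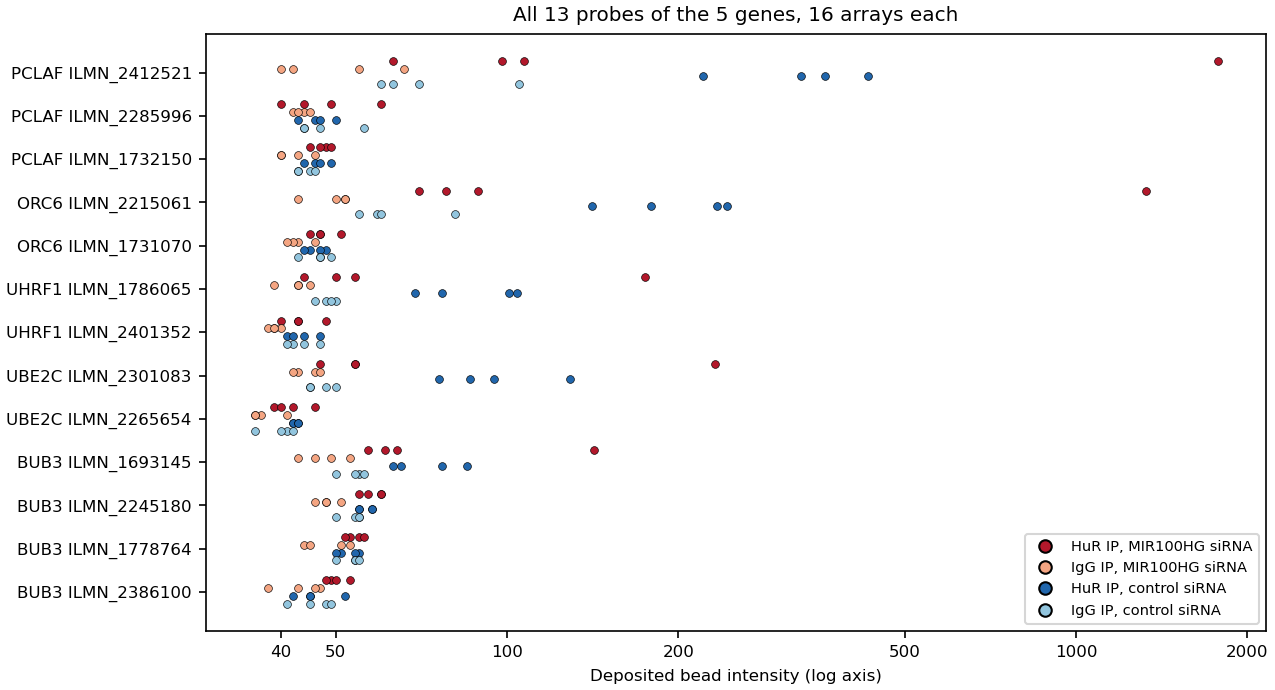
Deposited bead intensity (log axis) of all 13 probes of the 5 genes on the 16 arrays, a point per array, coloured by group. The 8 probes that were not tested lie between 36 and 60, and the tested probe of each gene reaches beyond that range.

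With MIR100HG siRNA, the tested probes of ORC6 and PCLAF were called higher in HuR IPs than in IgG IPs with the processing used here. The ORC6 call was lost in 4 of 30 alternatives and the PCLAF call in 17. UHRF1, UBE2C and BUB3 did not pass the test. That is 2 of 5 genes called higher by limma at an adjusted p under 0.05, where 3.1% of the 1387 features were called higher (43), 1.08% lower (15) and 14.3% had an unadjusted p under 0.05 (199). The genes were chosen with the results of these 8 arrays known, so these p-values are not independent of the choice. Those of UHRF1, UBE2C and BUB3 also follow a filter that their probes passed through HuR arrays alone. All p-values of the 5 genes are given as descriptions, and no conclusion is drawn from them. Normalized values are log2 intensities after background correction and quantile normalization.

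ORC6 had intensities of 89, 1326, 78 and 70 in HuR IPs with MIR100HG siRNA (replicates 1 to 4), against 52, 43, 52 and 50 in IgG IPs with that siRNA. Every HuR array was above every IgG array, also after the array median was subtracted (22 to 1276 against 1 to 8). Such a separation held for 14.4% of the 1387 features after that subtraction, for 56.2% before it and for 4.11% on the normalized scale, where ORC6 also had it. On the normalized scale ORC6 averaged 7.14 ± 0.29 in HuR IPs and 4.46 ± 0.16 in IgG IPs (SD, n = 4 each), which differ by 2.68 ± 0.23 (SE; limma adjusted p = 2.68e-06). Its detection p was under 0.05 on 4 of 4 HuR and 2 of 4 IgG arrays. Without HuR replicate 2 the difference was 1.84 ± 0.17 (limma adjusted p = 9.8e-06), in a fit that called 3.22% of features higher. Without that array, ORC6 was at 0.99 ± 0.23 with median centring (limma adjusted p = 0.069; 0.435% called higher) and at 1.03 ± 0.24 without scaling (limma adjusted p = 0.045; 2.61% called higher). ORC6 passed in each of the 16 fits lacking 1 array, but with all arrays it did not pass with median centring (2.21, limma adjusted p = 0.282) or without scaling between arrays (2.26, limma adjusted p = 0.169).

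PCLAF had intensities of 98, 1774, 107 and 63 in HuR IPs with MIR100HG siRNA, against 66, 40, 42 and 55 in IgG IPs. The groups overlapped, since replicate 4 of the HuR IPs lay below replicate 1 of the IgG IPs. On the normalized scale PCLAF averaged 7.04 ± 1.11 in HuR IPs and 4.98 ± 1.18 in IgG IPs (SD, n = 4 each), which differ by 2.07 ± 0.54 (SE; limma adjusted p = 0.0372). Replicate 4 of the HuR IPs was at 5.39 on this scale, against 7.37 to 7.72 on the other HuR arrays. IgG replicate 1 was at 6.67, against 4.18 to 4.88 on the other IgG arrays. The call held in 8 of the 16 fits lacking 1 array and was lost without replicate 2 of the HuR IPs (1.36 ± 0.44, limma adjusted p = 0.0974), and in the other fits that lost it the difference was 1.84 to 2.11 (highest limma adjusted p = 0.116). It was also lost with median centring (2.35, limma adjusted p = 0.285), without scaling (2.40, limma adjusted p = 0.173) and with only these 8 arrays in the fit (limma adjusted p = 0.314).

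BUB3 had intensities of 61, 142, 64 and 57 in HuR IPs with MIR100HG siRNA, against 46, 43, 49 and 53 in IgG IPs. The HuR arrays lay above the IgG arrays in intensity, as for 56.2% of the 1387 features. They also did so after the array median was subtracted (9 to 92 against 1 to 8), as for 14.4%. The groups overlapped on the normalized scale. There BUB3 averaged 4.85 ± 0.29 in HuR IPs and 4.38 ± 0.17 in IgG IPs (SD, n = 4 each), and the difference was 0.47 ± 0.16 (SE; limma adjusted p = 0.136; 95% interval 0.13 to 0.80). It was 0.30 ± 0.11 without HuR replicate 2 (limma adjusted p = 0.151). The adjusted p fell under 0.05 with quantiles taken within each IP type (0.66, limma adjusted p = 0.0323) and without replicate 4 of these HuR IPs (0.58, limma adjusted p = 0.0478). Since the BUB3 probe passed the filter through HuR arrays alone, neither counts as a call.

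UHRF1 had intensities of 54, 175, 50 and 44 in HuR IPs with MIR100HG siRNA, against 43, 39, 43 and 45 in IgG IPs. UBE2C had 54, 232, 54 and 47 in those HuR IPs, against 46, 43, 47 and 42 in the IgG IPs. For both genes replicate 2 was the 1 HuR array of 4 with a detection p under 0.05, and 0 of 4 IgG arrays had one. No fold is given for them, since the HuR mean lay below the lowest signal of detected probes on the IgG arrays. On the normalized scale UHRF1 averaged 4.50 ± 0.51 in HuR IPs and 4.20 ± 0.03 in IgG IPs (SD, n = 4 each; limma adjusted p = 0.481). UBE2C averaged 4.61 ± 0.62 and 4.25 ± 0.06 in the same groups (limma adjusted p = 0.482). Neither passed in any of the 16 fits lacking 1 array. Both probes passed the filter through HuR arrays alone, so the p-values of these genes are descriptions and no conclusion is drawn from them. Without HuR replicate 2, UHRF1 had a limma adjusted p of 0.827 and UBE2C one of 0.857. At this signal a difference was not detectable, which does not show that there was none.

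**Figure D2:**
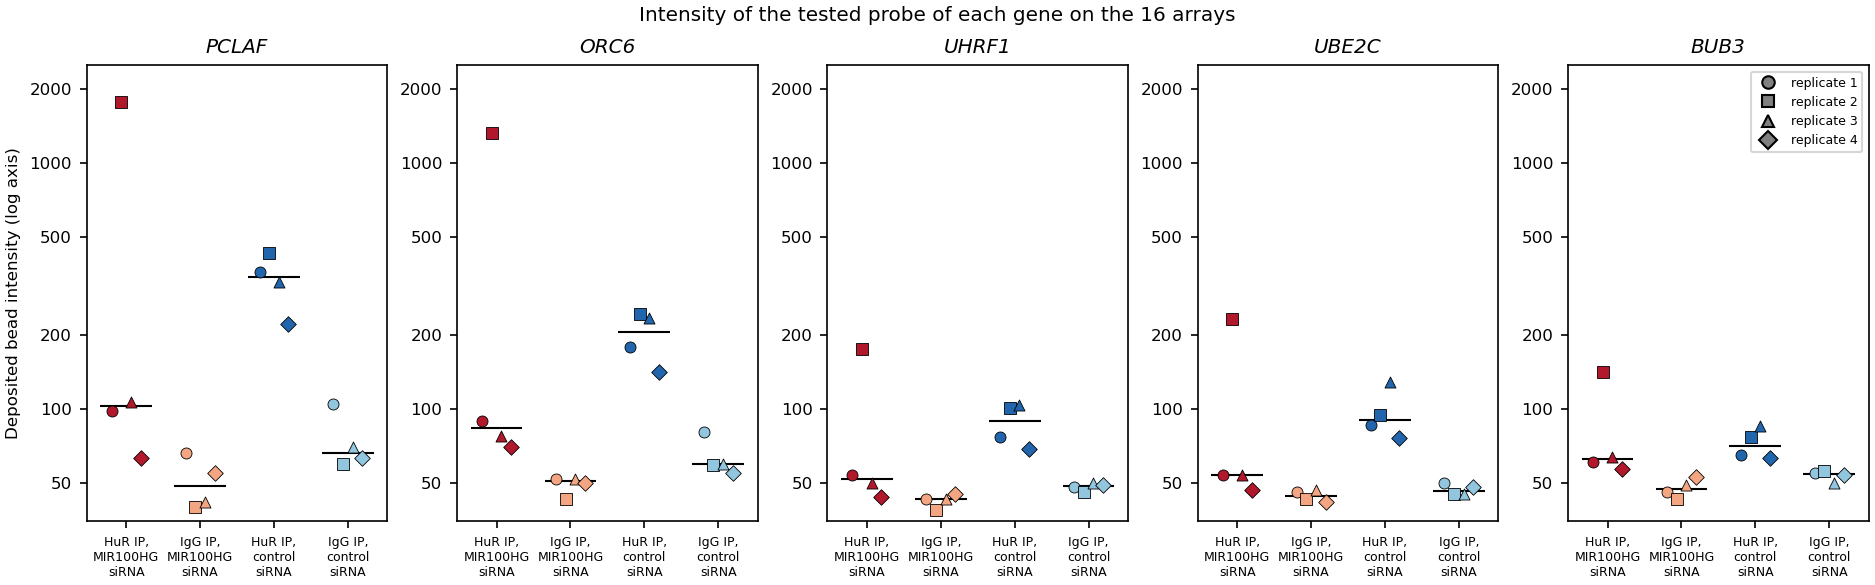
Deposited bead intensity (log axis) of the tested probe of each gene, by group. Each point is an array, its shape the replicate number and the horizontal line the group median; HuR replicate 2 under MIR100HG siRNA is the highest array for all 5 genes.

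With control siRNA, the comparison that picked the genes, every HuR array lay above every IgG array for all 5. ORC6 had intensities of 179, 244, 234 and 141 in HuR IPs with control siRNA, against 81, 59, 60 and 55 in IgG IPs. PCLAF had 362, 431, 329 and 221 in HuR IPs, against 105, 60, 70 and 63 in IgG IPs. UHRF1 had 77, 101, 104 and 69 in HuR IPs, against 48, 46, 50 and 49 in IgG IPs. The lowest HuR array of PCLAF was thus well clear of its highest IgG array, while UHRF1 had no IgG array with a detection p under 0.05.

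UBE2C had 86, 95, 129 and 76 in HuR IPs with control siRNA, against 50, 45, 45 and 48 in IgG IPs. BUB3 had 65, 77, 85 and 63 in HuR IPs, against 55, 56, 50 and 54 in IgG IPs, the narrowest gap of the 5. All HuR arrays lay above all IgG arrays for 24.4% of the 1387 features in this comparison (25% after the array median was subtracted, 23.3% on the normalized scale). limma called 21.1% higher (293) and 5.05% lower (70), and 34.2% had an unadjusted p under 0.05. The normalized log2 differences were 1.77 ± 0.23 for ORC6, 1.80 ± 0.54 for PCLAF and 0.69 ± 0.16 for BUB3 (SE). When 1 array was left out they ran from 1.26 to 2.02, 1.46 to 2.05 and 0.45 to 0.75. Over the other alternatives on the log2 scale they ran from 1.04 to 2.96, 1.20 to 3.49 and 0.27 to 1.06. With the normalization used here, UHRF1 was at least 1.79-fold higher and UBE2C at least 2.03-fold higher in HuR IPs. In these bounds each IgG value was raised to the lowest normalized signal of a probe with a detection p under 0.01 on its array.

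Scaling changed these counts. In the control-siRNA comparison, median centring and no scaling each gave 10 features called higher and 0 lower, while quantiles taken within each IP type gave 394 and 1. With MIR100HG siRNA median centring and no scaling each gave 0 and 0, and quantiles within each IP type gave 95 and 0. The unadjusted p was under 0.05 for 213 features with median centring and for 296 without scaling.

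**Figure D3:**
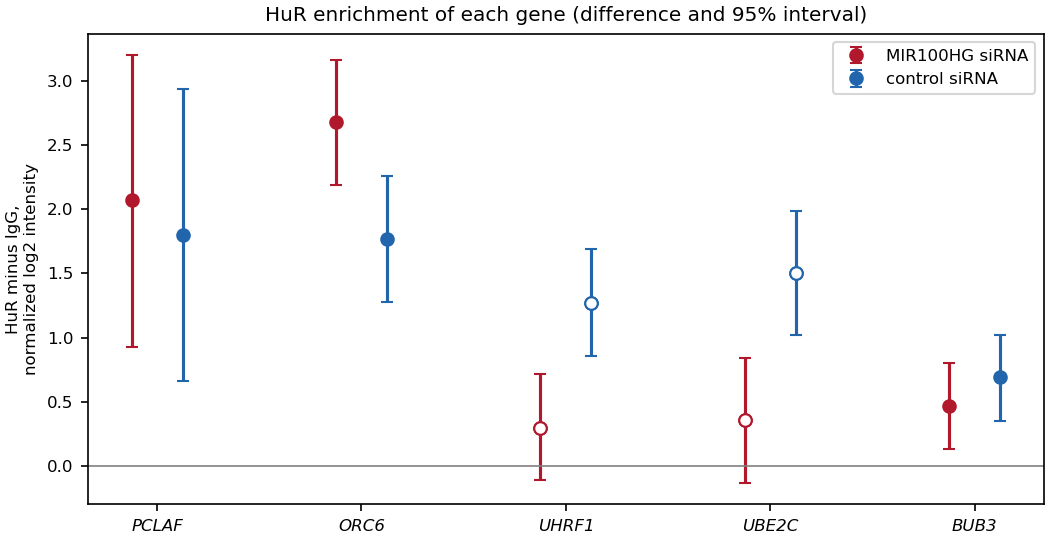
Difference in normalized log2 intensity, HuR minus IgG IPs, for each gene with MIR100HG siRNA (red) and control siRNA (blue), with its 95% interval from limma (4 arrays per group). Open circles mark UHRF1 and UBE2C, which no IgG array detected at p under 0.05, so that their fitted values are not fold changes; the interval of ORC6 with MIR100HG siRNA runs from 2.19 to 3.16 and that of UHRF1 from -0.11 to 0.72.

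The difference between the enrichments with the 2 siRNAs is given with no test, because it contains the comparison that picked the genes. The enrichment with MIR100HG siRNA minus that with control siRNA was 0.91 ± 0.33 for ORC6, 0.27 ± 0.76 for PCLAF and -0.22 ± 0.22 for BUB3 (SE). For ORC6 and PCLAF its sign turned with the scaling: ORC6 was at -0.18 with median centring and -0.15 without scaling, and PCLAF at -0.53 and -0.50. BUB3 was at -0.01 with median centring and 0.03 without scaling. For UHRF1 and UBE2C the fitted value was below 0 in every setting tried. It ran from -1.42 to -0.41 and from -1.65 to -0.52 over the settings on the log2 scale. A probe that no IgG array detected gives it no readable size. In intensity, HuR replicates 1, 3 and 4 under MIR100HG siRNA lay below all 4 HuR IPs with control siRNA for ORC6 (70 to 89 against 141 to 244), PCLAF (63 to 107 against 221 to 431), UHRF1 (44 to 54 against 69 to 104) and UBE2C (47 to 54 against 76 to 129). Setting replicate 2 aside was a choice made after seeing the data, and 26.6% of the 1387 features had the same separation. Replicate 2 lay above all 4 HuR IPs with control siRNA for each of the 5 genes. For BUB3 replicate 3, at 64, lay above the lowest control-siRNA array, at 63. The highest intensity on these arrays followed the same order, with 314 to 334 on replicates 1, 3 and 4, 6370 on replicate 2 and 770 to 1420 in HuR IPs with control siRNA. The part of array-wide signal in these differences was not tested.

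In HuR IPs with MIR100HG siRNA, replicate 2 was highest and replicate 4 lowest for all 5 genes, as for 35.6% of the 1387 features. The fewest detected probes of that group were on replicate 1 (563), with 761 on replicate 4. In HuR IPs with control siRNA, replicate 4 was lowest for all 5 genes, as for 48.3% of the features, and had the fewest detected probes of its group (752). Replicate 2 was highest there for PCLAF and ORC6, and replicate 3 for UHRF1, UBE2C and BUB3. In the IgG IPs the highest array differed among the genes. Over the 16 arrays, with each gene centred on its mean, UHRF1 and UBE2C lay closest together, at a root mean square distance of 0.14 on the normalized log2 scale. BUB3 was at 0.34 from UHRF1 and 0.42 from UBE2C. ORC6 and PCLAF were 0.79 apart, and each was at least 0.90 from the other 3 genes.

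The named genes were ranked by the same distance, with symbols of the LOC and HS. kind passed over. Nearest to PCLAF were TUBA3FP, a tubulin pseudogene (0.29), and MSH3, a mismatch repair gene (0.37). Nearest to ORC6 were ITIH5 (0.45) and FAM177A1 (0.55). Nearest to UHRF1 were TMX1, which encodes a thioredoxin-related membrane protein (0.12), and TRMT5, which encodes a tRNA methyltransferase (0.13). Nearest to UBE2C were TMX1 (0.13) and UHRF1 (0.14), and nearest to BUB3 were AFMID and ZNF266 (0.19 each). The median distance to all other features was 1.35 for PCLAF, 1.22 for ORC6, 0.70 for UHRF1, 0.79 for UBE2C and 0.50 for BUB3. These distances are over 16 arrays that share their normalization.

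Other mRNAs of the same processes were mostly too dim to test. Of 63 DNA replication and S phase genes, 62 had a probe, 15 had one with a detection p under 0.01 on any array and 5 were tested. Besides ORC6, PCLAF and UHRF1 these were PRIM1 and PRIM2, the subunits of the DNA primase. Neither primase gene passed with MIR100HG siRNA (0 of 2 by limma, and 0 at an unadjusted p under 0.05). PRIM2 had intensities of 45, 156, 41 and 40 in HuR IPs with MIR100HG siRNA, against 42, 37, 39 and 39 in IgG IPs. With control siRNA it had 66, 68, 84 and 60 in HuR IPs, against 44, 46, 44 and 46 in IgG IPs. With the normalization used here PRIM2 was at least 1.32-fold higher in HuR IPs. No p is given for it in this comparison, as none is for UHRF1, UBE2C and BUB3 with control siRNA. Its probe, like theirs, passed the filter through the HuR arrays alone. Like UHRF1 and UBE2C, PRIM2 was detected at p under 0.05 on 1 HuR array of 4 with MIR100HG siRNA, replicate 2, and on 4 of 4 with control siRNA. The share of all features with this detection pattern was not counted. Replicate 2 had the highest intensity of its group for 59.6% of the 1387 features.

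Of 77 mitosis and APC/C genes, all had a probe, 29 had one with a detection p under 0.01 on any array and 10 were tested. Apart from UBE2C and BUB3, 0 of 8 passed in limma with either siRNA, and 0 with MIR100HG siRNA and 1 with control siRNA had an unadjusted p under 0.05. These 8 were ANAPC11, a catalytic subunit of the APC/C, the cyclin gene CCNA2, the survivin gene BIRC5, the kinetochore motor gene CENPE, the securin gene PTTG1 and the tubulin genes TUBB, TUBA1B and TUBA1C. Without TUBB, which was detected on 1 of 4 HuR and 0 of 4 IgG arrays with MIR100HG siRNA, the normalized differences of the other 7 ran from -0.24 to 0.21 with that siRNA (median 0.04). Those of all 8 ran from -1.10 to 0.36 with control siRNA (median -0.16). The median over all 1387 features was 0.08 with MIR100HG siRNA and -0.05 with control siRNA. TUBB had intensities of 44, 199, 48 and 42 in HuR IPs with MIR100HG siRNA, against 44, 41, 38 and 40 in IgG IPs, so replicate 2 was its 1 array above background there.

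**Figure D4:**
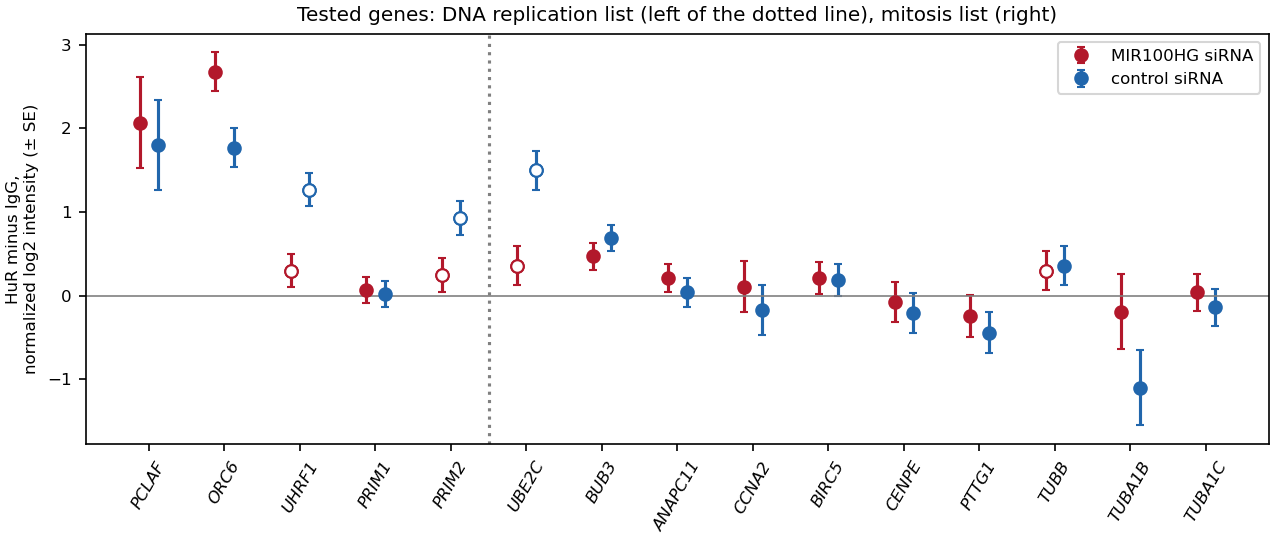
Difference in normalized log2 intensity, HuR minus IgG IPs, for the 5 tested DNA replication genes and the 10 tested mitosis genes, with MIR100HG siRNA (red) and control siRNA (blue); bars are the standard error from limma. Open circles mark genes that no IgG array of that comparison detected at p under 0.05; the 8 mitosis genes other than UBE2C and BUB3 lie between -1.10 and 0.36.

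**Figure D5:**
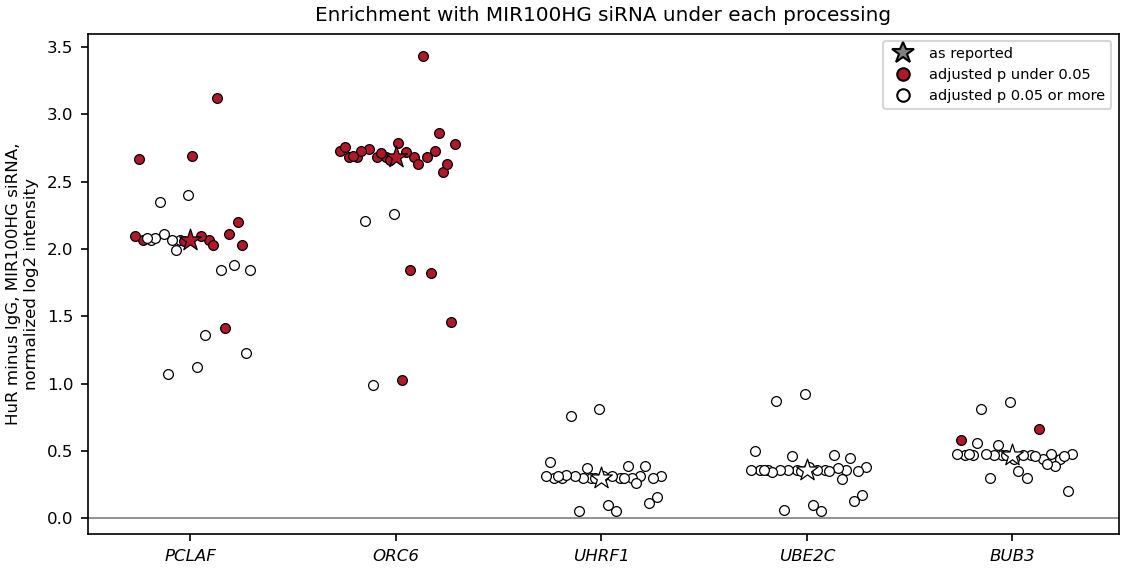
Enrichment with MIR100HG siRNA (HuR minus IgG, normalized log2 intensity) of each gene as reported (star) and under each alternative on the log2 scale (circles); filled symbols had a limma adjusted p under 0.05. PCLAF runs from 1.07 to 3.12 and ORC6 from 0.99 to 3.43, and all plotted values of the 5 genes lie above 0.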

How the data were processed

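RNA recovered by IP was amplified from an oligo-dT primer, per the labels' protocols, and hybridised to Illumina bead arrays. The deposited intensity of a probe is its linear bead signal before any normalization; GenomeStudio 2011.1 is named in the submitters' processing notes. Per the file headers, a detection p-value stands beside each. The deposited score of the series' value table is a z-score per array by its values and served as an alternative; 15 of 16 columns followed their array's log2 intensity (lowest r 0.997 across probes), and IgG replicate 1 under MIR100HG siRNA did not (0.0066) and was not used.

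Of 47231 probes, 30113 had 1 gene symbol, 8 several and 17110 none. For 30074 of the 30113 the gene identifier was found in RefSeq, and the RefSeq symbol was used. Background correction and quantile normalization were done by neqc (limma 3.58.1, R 4.3.3; offset 16; negative controls inferred from detection p), which gives all arrays 1 distribution. The filter (detection p under 0.01, 4 or more of 16 arrays) kept 1438 probes, the highest-mean probe standing for a gene (825 genes, 562 unnamed probes). limma fitted 4 group means over 16 arrays, with Benjamini-Hochberg adjustment over 1387 features; the fit was tested on simulated data. Arrays of a group shared 8.25% to 11.0% identical intensities, so none were duplicates.

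Groups and replicate numbers came from the titles. The genes, pathway lists and tests were chosen with earlier results of these data known. Named genes were the 5 members, list genes that passed in a contrast (otherwise the 3 with the largest size) and the 2 nearest genes of each member. The remaining tested list genes were named after their values were seen. The sources used here name no slide or scan batch. Figures were drawn with matplotlib 3.10.9.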

Additional observations from a re-analysis of the deposited data

Results flagged for a closer look

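Within groups of 4 arrays, 10 of 44 checked values had 1 array far from the other 3 (Dixon's test). About 2.2 would by chance if the values were independent. They are not, since they come from the same arrays and each gene enters both as intensity and on the normalized scale. HuR replicate 2 under MIR100HG siRNA accounted for 8 of the 10. It had 2592 detected probes, against 563 to 824 on the other arrays of its group. Its intensity was 1774 for PCLAF (others 63 to 107), 1326 for ORC6 (70 to 89), 175 for UHRF1 (44 to 54), 232 for UBE2C (47 to 54) and 142 for BUB3 (57 to 64). On the normalized log2 scale it remained apart for UHRF1, at 5.26 (others 4.16 to 4.33), and for UBE2C, at 5.53 (4.21 to 4.36).

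Replicate 4 of the same group was apart for PCLAF on the normalized scale, at 5.39, with the other arrays at 7.37 to 7.72. HuR replicate 2 under control siRNA was apart for ORC6, at 7.17, with the other arrays at 7.01 to 7.02.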

How the results depend on the processing

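Each result was recomputed under 30 alternatives, 16 of which left out an array. Quantile normalization on the log2 scale was added after seeing the data. The differences between HuR and IgG IPs of the 5 genes kept their sign in all of them with either siRNA. With control siRNA that sign is what picked the genes, so its persistence is no support. With MIR100HG siRNA UHRF1 and UBE2C were at 0.05 ± 0.09 and 0.05 ± 0.10 (SE) without HuR replicate 2, and their sign is not readable. With MIR100HG siRNA 58 features were called. They became 0 with median centring, without scaling and with the deposited scores (141 at an unadjusted p under 0.05 with the scores), 95 with quantiles within each IP type, 8 with no filter and 9 with only the 8 arrays of the comparison. Leaving out an array gave 22 to 94: 32 without IgG replicate 4, and 23, 22 and 94 without HuR replicates 1, 3 and 4, all under MIR100HG siRNA. Leaving out HuR replicate 2 gave 5 with median centring and 30 without scaling. With control siRNA the 363 calls became 10 with median centring, 10 without scaling and 139 without a filter, and 232 to 369 when an array was left out (232 without replicate 1 and 236 without replicate 2 of those HuR IPs). The median over all features with MIR100HG siRNA was 0.08, and 0.22 with median centring, 0.27 without scaling and 0.30 within each IP type.

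PCLAF with MIR100HG siRNA also missed the threshold without background correction (limma adjusted p = 0.0506), with a filter on 2 arrays (0.0659) and without a filter (0.504). The difference between the enrichments changed sign for PCLAF (0.27) to -0.53 with median centring, -0.50 without scaling, -0.38 within each IP type, -0.02 without background correction and -3.36 SD with the deposited scores. Without HuR replicate 2 under MIR100HG siRNA it was -0.10 (range over arrays left out -0.10 to 0.86), and -1.80 and -1.77 with median centring and without scaling as well. For ORC6 (0.91) it became -0.18 with median centring, -0.15 without scaling, -2.34 SD with the scores, and -1.40 and -1.37 without that array under the same scalings. For BUB3 (-0.22) it became 0.03 without scaling. The cause was not tested.

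Replicate numbers are shared by all groups, but samples with the same number did not deviate together (median r 0.00362, range -0.159 to 0.259 over 24 pairs). In the IgG IPs with MIR100HG siRNA the IP numbers of the sample descriptions do not follow the order of the replicate numbers. Pairing by IP number was not tested. With the replicate number as a block, 57 and 359 features were called with MIR100HG and control siRNA, and no call of the 5 genes changed.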
